A study of Zea mays with 6 samples.

Results

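Genes of starch and sucrose metabolism, most of them described as enzymes, were compared in filling maize endosperm between *zmnac128 zmnac130*, which carries knockouts of a duplicate pair of NAC transcription factors, and the wild type. They were taken by gene ID and are 9 of the 44303 genes in the deposited tables. *HXK1*, *PGM1*, *UGP2*, *bt2*, *AGPLL2*, a probable alpha-glucosidase and the uncharacterized genes LOC100280412 and LOC103632655 are the genes that the study's pathway table places under starch and sucrose metabolism, and *SE1* was added as a starch-related gene. All 9 belong to the study's list of highly and differentially expressed genes, which was drawn up partly on these same samples, so the direction of each change is not independent evidence. The study screened for high expression in its samples of inbred KN5585, which are not those used here. A gene of the list can therefore be low in these libraries.

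Filling maize endosperm receives sucrose and hexoses from the mother plant and turns them into starch. Hexokinase phosphorylates hexoses, phosphoglucomutase interconverts glucose 6-phosphate and glucose 1-phosphate, and UDP-glucose pyrophosphorylase links glucose 1-phosphate with UDP-glucose, the product of sucrose synthase. ADP-glucose pyrophosphorylase (AGPase), an enzyme of small and large subunits, makes ADP-glucose from glucose 1-phosphate. ADP-glucose is the glucosyl donor of the starch synthases, and loss of either endosperm subunit gives the brittle or shrunken kernels of classical maize genetics.

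RNA-seq libraries were made from endosperm at 16 DAP (days after pollination) in both genotypes, which were F2 offspring of inbred B73 and KN5585, in which the knockouts had been made. The background is therefore a segregating mixture of 2 inbreds in both genotypes, except that mutants carry KN5585 sequence at the knockout loci. Differences between genotypes in sequence linked to these loci were not examined. RNA came from more than 3 endosperms per genotype, and the study describes the samples as independent. The labels give 3 samples in *zmnac128 zmnac130* and 3 in the wild type. In both, replicate 3 repeated the value of replicate 1 in all 44303 genes. The columns of replicate 3 thus held no values of their own, and replicates 1 and 3 were counted as 1 sample, which left 2 libraries per genotype. Whether the repeated columns stand in for another library cannot be told from the deposited values. The study lists, for its selected genes only, a further sample per genotype whose values differ from replicate 1, and those values were not used here. The transcripts of *ZmNAC128* and *ZmNAC130* were not used to check the labels, because no source used here ties these names to gene IDs.

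Expression is given as FPKM (fragments scaled to gene length and library size), a level per length that allows comparing genes in a library. Between libraries it also depends on the make-up of the RNA. FPKM summed to 578131 and 586855 in *zmnac128 zmnac130* and to 621315 and 610444 in the wild type. The depth, read from the steps of the FPKM values, was 30696032 and 29312397 reads in genes in the *zmnac128 zmnac130* libraries and 28478576 and 26317317 in the wild-type libraries. Storage protein genes, zeins and others described only as storage proteins, were taken here as markers of starchy endosperm. All were expressed, the lowest of the 10 (Zm00001eb144590, not described as a zein) at 14.5 FPKM. Together they held 4.46% and 3.41% of all FPKM in *zmnac128 zmnac130*, against 11.6% and 11.7% in the wild type. These genes come from the study's list of changed genes, so the lower share is not independent evidence. In bulk RNA, fewer cells of a type and less RNA per cell cannot be told apart.

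The genotypes were compared across the 19082 genes whose mean reached 1 FPKM, by limma, which fits linear models and shares variance across genes, after transformation to log2(FPKM + 1). Calls required a log2 fold change beyond 1 in either direction and p below 0.05 after Benjamini-Hochberg adjustment. Of the 9 genes, 8 passed the filter on low values, and of these *PGM1*, *UGP2*, *AGPLL2*, LOC100280412 and LOC103632655 were called higher and *HXK1*, *bt2* and the alpha-glucosidase lower in *zmnac128 zmnac130*. *SE1* had a mean below 1 FPKM and was not tested. Over all tested genes 13.6% were called, 6.43% higher and 7.18% lower, and 43.9% passed the adjusted p alone. Such a change was a condition of the study's list, so nothing is read from the count of 8. Their median log2 fold change of 1.31, beside 0.0068 over all tested genes, likewise follows from the choice of genes and the split of 5 higher and 3 lower. In each of the 9 genes the libraries of the 2 genotypes did not overlap, which was also true of 75.6% of all tested genes (38.4% higher and 37.2% lower in the mutant).

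**Figure D1:**
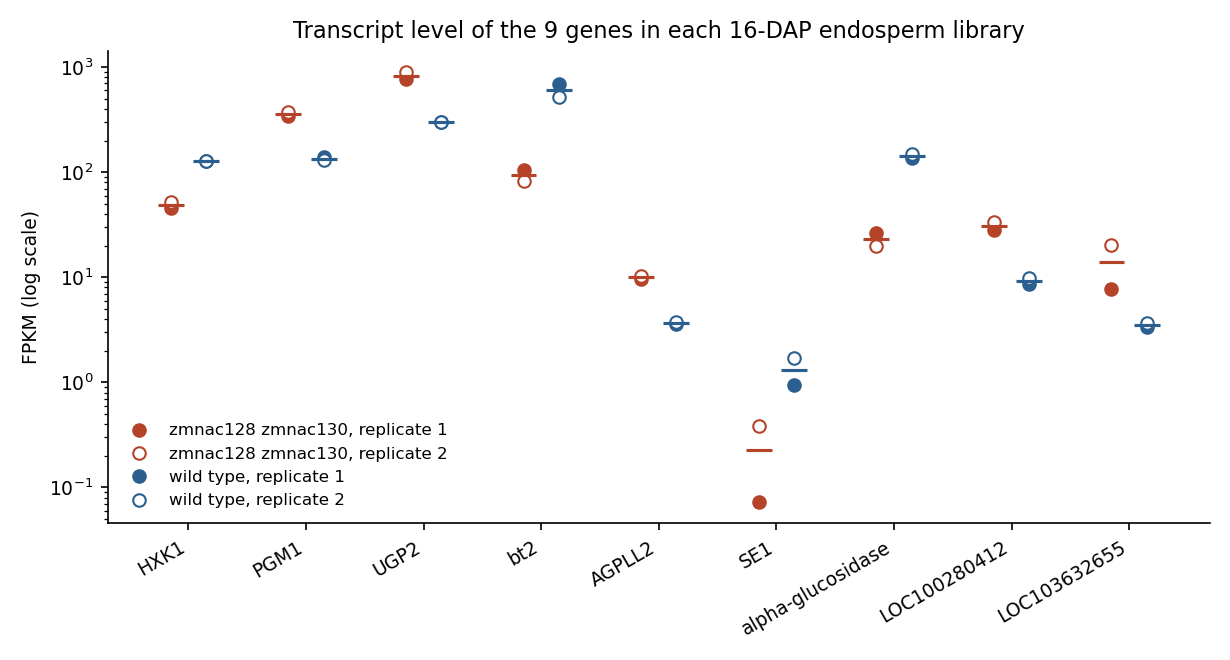
Transcript level of each of the 9 genes (FPKM, log scale) in the 2 distinct libraries of *zmnac128 zmnac130* (red, left) and of wild type (blue, right), with filled and open points for replicates 1 and 2 and a bar at the mean. The genes span from 0.0730 FPKM for *SE1* to 894 FPKM for *UGP2*, and the red and blue points do not overlap in any of them.

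At the entry of hexoses, *HXK1* (Zm00001eb121400, described as hexokinase1) was lower. It lies on chromosome 3 from 7009382 to 7013818 of Zm-B73-REFERENCE-NAM-5.0 (RefSeq annotation). *HXK1* had 45.2 and 52.5 FPKM in *zmnac128 zmnac130* (3611 and 4010 reads), against 128.3 and 127.2 FPKM in the wild type (9514 and 8715 reads). The wild-type libraries were almost equal, and both mutant libraries lay well below them. The mean in the wild type was 2.61 times that in the mutant, and over the 4 possible pairs of a mutant and a wild-type library this factor lay between 2.42 and 2.84. The log2 fold change was -1.37 with a standard error of 0.10 (limma, adjusted p = 0.000292), and 4.43% of all tested genes had a lower one.

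*PGM1* (Zm00001eb054980, phosphoglucomutase1), the next step, changed the other way. It had 344 and 373 FPKM in *zmnac128 zmnac130* and 139 and 130.04 FPKM in the wild type. Replicates differed by a factor of 1.08 in the mutant and 1.07 in the wild type, whereas the mean in the mutant was 2.66 times that in the wild type. The log2 fold change was 1.41 with a standard error of 0.096 (limma, adjusted p = 0.000241). Wild-type endosperm thus held nearly the same level of *HXK1* and *PGM1* transcripts, and mutant endosperm did not. The ratio of *HXK1* to *PGM1* was 0.131 and 0.141 in *zmnac128 zmnac130* and 0.921 and 0.978 in the wild type.

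*UGP2* (Zm00001eb320800, UDP-glucose pyrophosphorylase2) also rose. It had 767 and 894 FPKM in *zmnac128 zmnac130*, against 302 and 299 FPKM in the wild type. With 53365 and 59440 reads in the mutant and 19469 and 17839 in the wild type, it was the most deeply measured of the genes that rose. The mean ratio was 2.77 and the log2 fold change 1.46 with a standard error of 0.12 (limma, adjusted p = 0.000381). *UGP2* stood at rank 60 and 57 of all genes by FPKM in the mutant libraries and at rank 158 and 157 in the wild-type libraries. The ratio of *UGP2* to *PGM1* was 2.23 and 2.40 in *zmnac128 zmnac130* and 2.17 and 2.30 in the wild type. These values overlapped, and their mean log2 difference of 0.052 lay within the spread of the libraries. With 2 libraries against 2, that overlap does not show that the ratio was the same.

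*bt2* (Zm00001eb176800, brittle2), the small subunit of endosperm AGPase, had the lowest log2 fold change of the 8 tested genes. RefSeq, whose synonym gave the name, places it on chromosome 4 from 61578520 to 61584597 of Zm-B73-REFERENCE-NAM-5.0. It had 106 and 82.9 FPKM in *zmnac128 zmnac130* (10598 and 7935 reads), against 696 and 518 FPKM in the wild type (64678 and 44500 reads). The wild-type libraries differed by a factor of 1.34 and the mutant libraries by 1.28, far more than read counting, whose coefficient of variation was at most 1.12%. Even so, the mutant libraries were both far below the wild type. The mean in the wild type was 6.43 times that in the mutant, and between 4.90 and 8.39 times over the pairs of libraries. The log2 fold change was -2.67 with a standard error of 0.18 (limma, adjusted p = 0.000230), and 0.865% of all tested genes had a lower one. *bt2* stood at rank 692 and 1002 of all genes in the mutant libraries, against rank 56 and 70 in the wild-type libraries.

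*AGPLL2* (Zm00001eb304130), described as a leaf large subunit of AGPase, was weakly expressed and higher in the mutant. It had 9.65 and 10.3 FPKM in *zmnac128 zmnac130* and 3.62 and 3.79 FPKM in the wild type. Its replicates lay close together, within a factor of 1.06 in the mutant and 1.05 in the wild type, with 1091 and 1108 reads in the mutant and 380 and 367 in the wild type. Counting error alone was at most 3.03% in the mutant and 5.22% in the wild type. The mean ratio was 2.69 and the log2 fold change 1.22 with a standard error of 0.12 (limma, adjusted p = 0.000716). Its 95% interval, 0.93 to 1.51, reached below the threshold of 1. The pseudocount matters at this level. With a pseudocount of 10 in place of 1 the log2 fold change was 0.54 and the call was lost, while on reads recovered from the FPKM steps (limma voom) it was 1.43.

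The 2 measured AGPase subunits moved apart. There were 11.0 and 8.08 *bt2* transcripts per *AGPLL2* transcript in *zmnac128 zmnac130* on the FPKM scale, against 192 and 137 in the wild type. The ratio was thus 17.2 times higher in the wild type, and the 2 genotypes did not overlap. The log2 ratio of mean FPKM was -2.69 for *bt2* and 1.43 for *AGPLL2*, so the larger share of this shift lay in *bt2*. *AGPLL2* is not the large subunit that classical genetics pairs with *bt2* in the endosperm, which is *sh2* (shrunken2). No source used here ties *sh2* to a gene ID, so the balance of *bt2* with its endosperm partner was not analysed here.

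The ratios of *bt2* to its neighbours on the path were lower in the mutant by a similar factor. The ratio of *bt2* to *UGP2* was 0.138 and 0.0927 in *zmnac128 zmnac130* and 2.31 and 1.73 in the wild type. That of *bt2* to *PGM1* was 0.307 and 0.223 in the mutant and 4.99 and 3.98 in the wild type. In the wild type *bt2* was therefore the most abundant of the 9 transcripts, and in the mutant both *UGP2* and *PGM1* exceeded it in every library. A ratio within a library does not depend on how the library was scaled. Of the 5 ratios compared, the 4 with *bt2* or *HXK1* did not overlap between genotypes and that of *UGP2* to *PGM1* did. Each of the 4 sets a gene that fell against one that rose, and all came from the study's list of changed genes. Nothing is therefore read from their lack of overlap, and those with *bt2* share its values. An exact two-sided permutation test over the 6 arrangements of 2 libraries against 2 gave p = 0.33 for each of the 4, the smallest it allows (adjusted p = 0.416 over the 5 ratios), and p = 0.667 for *UGP2* to *PGM1*.

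**Figure D2:**
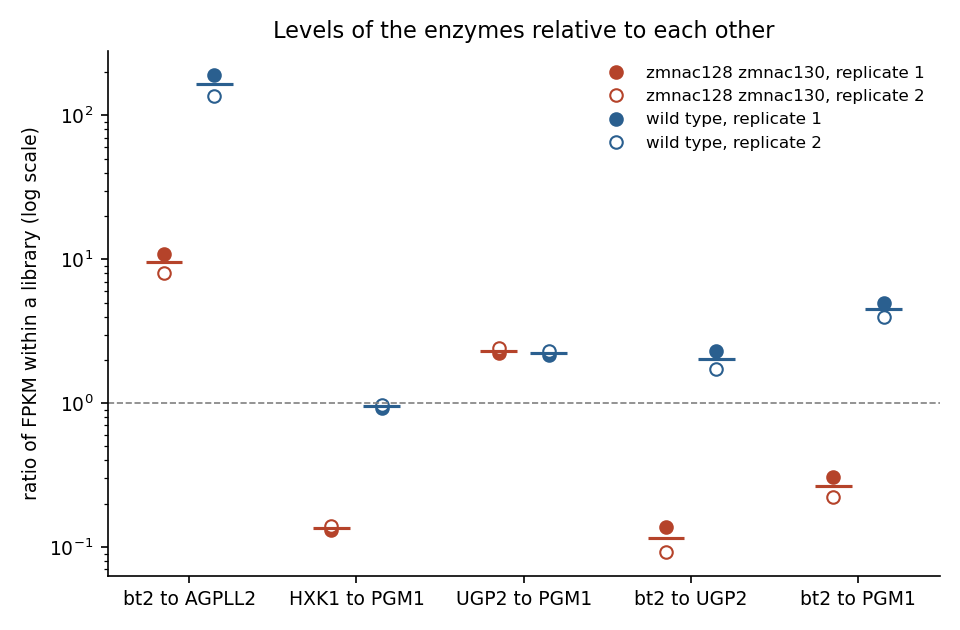
Ratio of the FPKM of 2 genes within each library (log scale) for 5 pairs, in *zmnac128 zmnac130* (red, left) and wild type (blue, right), with bars at the mean and a dashed line at equal levels. The 3 ratios with *bt2* on top are 17.1 to 17.7 times higher in the wild type, that of *HXK1* to *PGM1* is 6.98 times higher in the wild type, and that of *UGP2* to *PGM1* overlaps.

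*SE1* (Zm00001eb115450, sugary-enhancer1), named after the sweet corn locus that modifies kernel sugar in *sugary1* kernels, was close to the limit of detection in these libraries. It had 0.0730 and 0.382 FPKM in *zmnac128 zmnac130*, against 0.944 and 1.70 FPKM in the wild type. As the smallest whole numbers of reads that give these values, this stands for 2 and 10 reads in the mutant and 24 and 40 in the wild type. The reads of the 2 libraries together, relative to all reads in genes, were 5.84 times as many in the wild type (exact 95% interval 3.12 to 11.9, which covers counting error only). The factor between single libraries ran from 2.47 to 23.3, and replicates alone differed by a factor of 5.24 in the mutant. With no filter on low values the log2 fold change of *SE1* was -0.91 on the log2(FPKM + 1) scale (adjusted p = 0.0453 from limma), which is below the fold change threshold. Limma voom on the recovered reads with no filter, a fit chosen after the data had been seen, gave -2.75 (adjusted p = 0.0409). At this depth the size of the difference is known only loosely. In KN5585 endosperm of other ages, the study reports lower *SE1* and *HXK1* in the mutant by real-time PCR. It also reports that both factors bound the promoters of these genes and raised their activity in a reporter assay in leaf protoplasts.

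A probable alpha-glucosidase (Zm00001eb273940), described after a rice gene, fell nearly as far as *bt2*. Alpha-glucosidases release glucose from maltose and short glucans. The gene had 26.5 and 20.01 FPKM in *zmnac128 zmnac130* (2881 and 2076 reads), against 138 and 149 FPKM in the wild type (13912 reads in each). The mean in the wild type was 6.18 times that in the mutant, and the log2 fold change was -2.59 with a standard error of 0.14 (limma, adjusted p = 0.000111). In the wild type its level overlapped with that of *PGM1*, at 138 and 149 FPKM against 139 and 130.04 FPKM. In the mutant the libraries of these genes were far apart.

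The 2 genes with no described function both rose. LOC100280412 (Zm00001eb021270), whose RefSeq protein is annotated as a precursor, lies on chromosome 1 from 80821277 to 80825990 of Zm-B73-REFERENCE-NAM-5.0. It had 28.0 and 33.9 FPKM in *zmnac128 zmnac130* and 8.62 and 9.90 FPKM in the wild type, and its log2 fold change was 1.64 with a standard error of 0.13 (limma, adjusted p = 0.000374). Both mutant libraries were at least 2.83 times the higher wild-type library. LOC103632655 (Zm00001eb098650) was the least certain of the calls. It had 7.81 and 20.5 FPKM in *zmnac128 zmnac130* (503 and 1259 reads), against 3.35 and 3.71 FPKM in the wild type (200 and 205 reads). The second mutant library was thus 2.62 times the first, a gap that read counting (4.46% and 2.82%) does not cover. The log2 fold change was 1.60 with a 95% interval of 0.66 to 2.55 and a standard error of 0.39 (limma, adjusted p = 0.0189). Without the second mutant library it was 0.96 and below the threshold. The call was also lost when a wild-type library was left out, replicate 1 (limma, adjusted p = 0.182) or replicate 2 (limma, adjusted p = 0.165), and with no filter on low values (adjusted p = 0.0589), while the gene stayed higher in all of these fits. With 1 wild-type library left, the spread of this gene came from the mutant pair and the variance shared across genes, and the lone library was assumed to vary likewise.

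**Figure D3:**
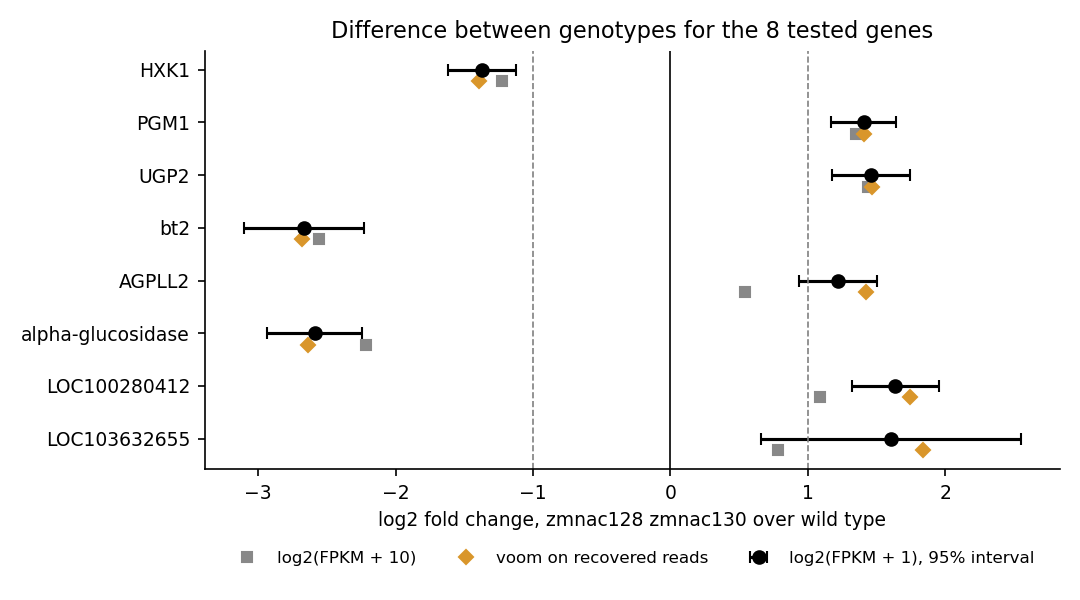
Log2 fold change of *zmnac128 zmnac130* over wild type for the 8 tested genes. *HXK1*, *PGM1*, *UGP2*, *bt2* and *AGPLL2* follow the path, and the alpha-glucosidase and the uncharacterized genes come after them. Black points with bars are limma estimates on log2(FPKM + 1) with 95% intervals, grey squares use a pseudocount of 10 and orange diamonds limma voom on recovered reads, and dashed lines mark the threshold of 1. *AGPLL2* and LOC103632655 fall inside the threshold with a pseudocount of 10, at 0.54 and 0.78, and their intervals, 0.93 to 1.51 and 0.66 to 2.55, both reach below it.

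The order of levels was rearranged. In *zmnac128 zmnac130* the order by mean was *UGP2*, *PGM1*, *bt2*, *HXK1*, LOC100280412, the alpha-glucosidase, LOC103632655, *AGPLL2* and *SE1*. The libraries of LOC103632655 overlapped with those of the alpha-glucosidase and of *AGPLL2*. In the wild type the order was *bt2*, *UGP2*, the alpha-glucosidase, *PGM1*, *HXK1*, LOC100280412, *AGPLL2*, LOC103632655 and *SE1*, with overlapping libraries for the alpha-glucosidase and *PGM1* and for *AGPLL2* and LOC103632655. The wild-type levels of the alpha-glucosidase, *PGM1* and *HXK1* lay together between 127.2 and 149 FPKM, and the next gene was 13.8 times lower than *HXK1*. The same 3 genes lay between 20.01 and 373 FPKM in the mutant.

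The summed level of the 9 genes overlapped between genotypes. It was 1334 and 1488 FPKM in *zmnac128 zmnac130*, against 1419 and 1243 FPKM in the wild type. The genes that rose made up 1156 and 1332 FPKM of it in the mutant and 456 and 446 FPKM in the wild type. The remaining genes, *SE1* included, made up 178 and 156 FPKM in the mutant and 963 and 796 FPKM in the wild type. As this split follows the direction of change in these same libraries, the opposite shifts of its parts were fixed by it. As a share of reads in genes, the 9 took 0.331% and 0.364% in *zmnac128 zmnac130* and 0.418% and 0.361% in the wild type.

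**Figure D4:**
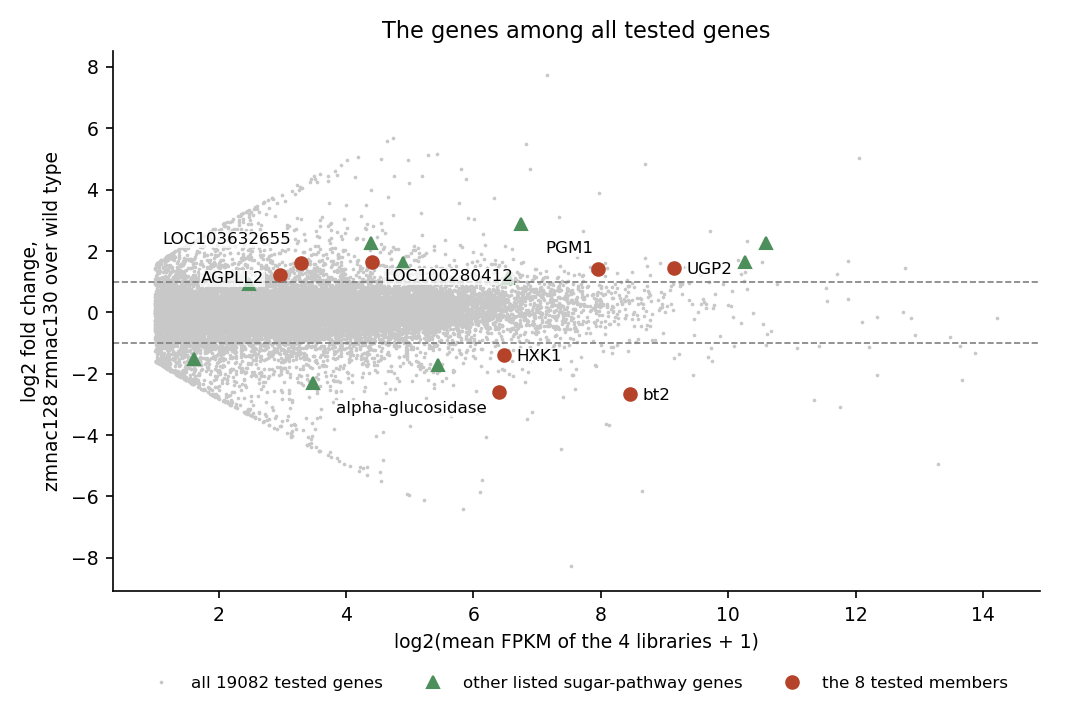
Log2 fold change of *zmnac128 zmnac130* over wild type against log2(mean FPKM of the 4 libraries + 1) for the 19082 tested genes (grey), the 8 tested genes of starch and sucrose metabolism (red) and 10 other listed sugar-pathway genes (green), with dashed lines at the threshold of 1. *bt2* and *UGP2* lie among abundant transcripts, and 18.3% of the 744 genes whose mean reached 100 FPKM were called.

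The pathways that border on starch synthesis were described with the lists of the study's pathway table, which again hold only its highly and differentially expressed genes. They share 5 of the 9 genes with nucleotide sugar metabolism, 2 with glycolysis and 4 with galactose metabolism, and add 10 others. Of the 5 others in glycolysis and gluconeogenesis, 3 were called higher and 2 lower, with a median log2 fold change of 1.64. The shares over all tested genes were 6.43% higher and 7.18% lower, with a median of 0.0068. As a change was a condition of the list, nothing is read from these counts or their median. Pyruvate decarboxylase 1, which leads pyruvate into ethanol fermentation, had 163 and 214 FPKM in *zmnac128 zmnac130* and 25.6 and 22.9 FPKM in the wild type (log2 fold change 2.89). Enolase 1 had 2276 and 2817 FPKM in the mutant and 529 and 526 FPKM in the wild type. A cytoplasmic fructose-bisphosphate aldolase had 1642 and 2067 FPKM in the mutant and 597 and 585 FPKM in the wild type. Enolase and aldolase act below the hexose phosphates in glycolysis, and pyruvate decarboxylase acts on its end product. All of them rose, whereas *HXK1* fell. The 2 that were lower have no described function. LOC100194404 had 19.5 and 19.3 FPKM in the mutant and 62.1 and 69.1 FPKM in the wild type, and Zm00001eb408260 had 2.98 and 2.54 FPKM in the mutant and 17.01 and 18.00 FPKM in the wild type.

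In amino sugar and nucleotide sugar metabolism, 3 of the 4 other genes were called higher and none lower, against 6.43% and 7.18% of all tested genes. These genes too were taken from the study's list of changed genes, so nothing is read from the count. GDP-mannose epimerase, which works on the route to ascorbate and cell wall sugars, had 30.6 and 36.9 FPKM in *zmnac128 zmnac130* and 6.47 and 5.81 FPKM in the wild type (log2 fold change 2.28). UDP-glucose 6-dehydrogenase, which oxidizes UDP-glucose to the precursor of wall polysaccharides, had 105 and 151 FPKM in the mutant and 57.4 and 57.0 FPKM in the wild type. Uncharacterized LOC100192721 had 45.4 and 42.01 FPKM in the mutant and 13.8 and 13.6 FPKM in the wild type. Beta-D-xylosidase 4, a wall enzyme, had a log2 fold change of 0.91 and was not called. In galactose metabolism, the 1 other gene, alkaline alpha galactosidase 3, had 0.433 and 0.710 FPKM in the mutant and 3.35 and 3.69 FPKM in the wild type, and was called lower.

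**Figure D5:**
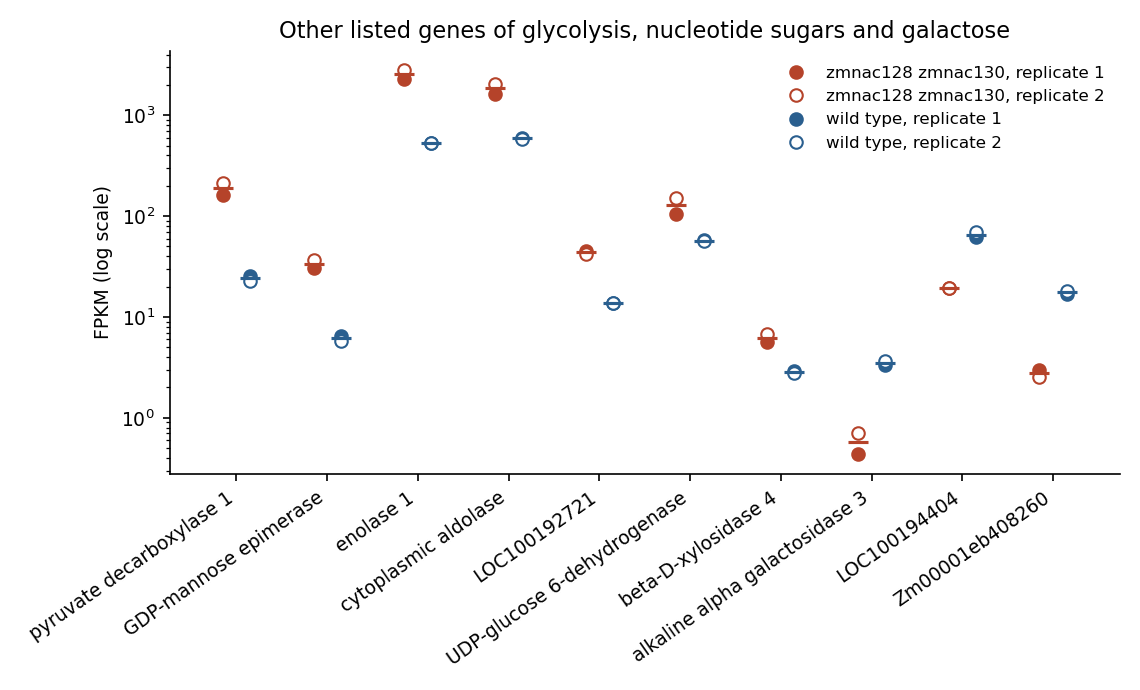
FPKM (log scale) of the 10 other listed genes of glycolysis, nucleotide sugar and galactose metabolism in each library of *zmnac128 zmnac130* (red, left) and wild type (blue, right), ordered by log2 fold change, with bars at the mean. Enolase 1 and the aldolase reach at least 1642 FPKM in both mutant libraries and at most 597 FPKM in the wild type.

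Transcripts of the genes taken here as endosperm markers were lower in the mutant. The 10 storage protein genes, which the study selected like the genes above, were all called lower and summed to 25774 and 19999 FPKM in *zmnac128 zmnac130*, against 72348 and 71614 FPKM in the wild type. *betl3*, a marker of the basal endosperm transfer layer that the study also selected, had 44.4 and 29.5 FPKM in the mutant and 135 and 162 FPKM in the wild type. A lower total of abundant transcripts raises the FPKM of all others. Each library was also scaled to its summed FPKM without the storage protein genes. The log2 fold changes were then 1.42 for *UGP2*, 1.36 for *PGM1*, 1.18 for *AGPLL2*, -1.41 for *HXK1* and -2.71 for *bt2*, all past the threshold. That scaling works on FPKM sums, and leaving the storage protein genes out of the read totals was not tried. Whether the share of cell types in the endosperm differed between genotypes was not tested.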

How the data were processed

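Levels were deposited by the authors as FPKM for 44303 genes. The study's methods give paired-end reads and alignment to B73 RefGen_v5 by HISAT2 (also in the submitters' processing notes, version not stated). How FPKM were computed is not given in the sources consulted. Each library was scaled to its own total. The columns of replicate 3 copied replicate 1 and were left out. Values of a further sample per genotype, which the study lists for its selected genes only and which differ from replicate 1, were not used.

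The 4 distinct libraries were compared with limma 3.58.1 (R 4.3.3) on log2(FPKM + 1), by lmFit and two-sided eBayes with a trend. The filter was a mean of 1 FPKM or more (19082 genes), and p-values were adjusted over all of them. They rest on 2 residual and 4.04 prior degrees of freedom. Reads were recovered from the FPKM steps as the smallest whole numbers that fit 1 length per gene (tolerance 0.002 reads). A solution was found in all 33589 genes above 0, but wholeness was the condition of the search and does not check the recovered reads. Because a common factor can go unseen, they sum to 98.4% to 98.6% of the totals. They are counts of sequenced reads, not of independent molecules. Python 3.11.15 served for the other steps, and both procedures were tested on simulated data.

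The members and lists were chosen with earlier results of these data known. All 9 members are named, with up to 4 called genes per pathway list and up to 2 against its majority. Starch pathway genes by symbol could not be paired with IDs, and 3 of 9 members matched RefSeq by accession. The RefSeq table used here holds no sequences, so none were searched for motifs. Alternatives were other pseudocounts, filters, scalings and thresholds, a replicate block, voom on recovered reads and leaving out each library.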

Additional observations from a re-analysis of the deposited data

How the results depend on the processing

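All 8 tested genes kept their direction in every alternative in which they were tested. *HXK1*, *PGM1*, *UGP2*, *bt2*, the alpha-glucosidase and LOC100280412 were called in all 16 of these, with log2 fold changes of *bt2* between -2.88 and -2.45 and of *UGP2* between 1.35 and 1.57. *AGPLL2* lost its call under a pseudocount of 10, and LOC103632655 in 5 of 15. Of the 8 genes tested 8 were called, 7 to 8 with 1 library left out and 6 with a pseudocount of 10. A filter at 10 FPKM left 6 to test, all of them called. With no filter 7 of 9 were called, and 9 of 9 with voom and no filter. With 1 library left out, the spread comes from the other genotype and the variance shared across genes, and the lone library is assumed to vary likewise. Over all genes 2598 were called, against 612 with a pseudocount of 10, 936 with a filter at a mean of 10 FPKM (8396 genes tested), 8369 without a fold change threshold, 3498 with voom on the reads recovered from the FPKM steps and 5258 with voom and no filter, which was added after seeing the data. With 1 library left out the number was 2061 to 2724. The ratio of *UGP2* to *PGM1* had a log2 difference of 0.052, which ran between -0.0017 and 0.106 with 1 library left out and changed sign without the second mutant library, so its direction is not established. Same-numbered libraries did not deviate together (correlation over genes -0.078), and a replicate block gave 2632 calls over all genes and the same 8 of the 9. SDs and p-values come from 2 libraries per genotype, and *SE1* is limited by its few reads.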
